A study of Mus musculus with 6 samples.

Results

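The early secretory pathway was described across 6 bulk RNA-seq libraries of mouse retinal ganglion cells through 62 of the 22413 genes in the count table. The genes were taken by symbol: those starting with Sec11, Sec16, Sec22, Sec23, Sec24, Sec31, Sec61, Sec62 or Sec63, the Tmed and Trappc genes, the coatomer genes Copa, Copb1, Copb2, Cope, Copg1, Copg2, Copz1 and Copz2, and Arcn1, Sar1a, Sar1b and Ssr1 to Ssr4. By role they fall into 10 genes of the translocon, 2 of the signal peptidase, 13 of COPII, 9 of COPI, 10 of the p24 cargo protein family, 15 of the TRAPP tether and 3 SNAREs. One of the Tmed symbols, Tmed10-ps, is a pseudogene. All mice were adults homozygous for the floxed receptor gene Tgfbr1. The 3 Cre libraries (Tgfbr1flx/flx;Vglut2Cre/+) came from mice with 1 Vglut2-Cre allele, in which the gene of vesicular glutamate transporter 2 drives the recombinase in glutamatergic neurons, and the 3 control libraries (Tgfbr1flx/flx;Vglut2+/+) came from mice without it. The labels name no further treatment, do not give the number of animals behind a library and do not say how the cells were isolated, so the p-values reflect differences among samples that may be technical only.

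Proteins bound for membranes or for secretion enter the endoplasmic reticulum (ER) through the Sec61 channel, lose their signal peptide to the signal peptidase, and leave the ER in vesicles coated by COPII. The GTPase Sar1 starts the COPII coat, Sec23 and Sec24 form its inner layer with Sec24 binding cargo, Sec31 belongs to the outer layer, and Sec16 organises exit sites. COPI, the 7-subunit coatomer, coats vesicles that return from the Golgi to the ER, p24 (TMED) proteins cycle between the compartments as cargo receptors, and TRAPP complexes tether vesicles and activate Rab GTPases. Ganglion cells use this route for the membrane proteins and secreted factors of their long axons.

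The libraries held 7486359 to 21126291 gene counts. A count of 0 allows up to 3 counts, which is 0.142 to 0.401 CPM (counts scaled to a common library total) depending on the library, for counting error alone. The targeted gene Tgfbr1 was counted 1, 0 and 1538 times across controls 1 to 3 and 46, 0 and 793 times across Cre 1 to 3. Counts are given per gene, with none for the floxed exons alone, so this does not check the genotypes. Ganglion cell markers summed to 2793 to 4777 CPM in 5 libraries and to 610.7 CPM in control 3, which had 0 counts of Slc17a6, the gene of vesicular glutamate transporter 2. Endothelial markers summed to 6225 CPM in control 3, with all 9 detected, and to 35.93 to 742.1 CPM with 1 to 7 detected in the other libraries. Muller glia, amacrine and pericyte markers summed to 126.5 to 778.7, 21.24 to 666.5 and 0.0861 to 546.2 CPM. Of photoreceptor and microglia markers, at most 1 of each was detected in any library. The part of these marker levels in the results below was not tested, and values without control 3 are given for some results only. In bulk RNA, fewer cells of a type and less RNA per cell cannot be told apart.

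More of the 62 genes were detected in the Cre libraries than in the controls, as was so for the genes of the whole table. With detection set at 10 counts or more, controls 1, 2 and 3 detected 27, 34 and 44 genes and Cre 1, 2 and 3 detected 50, 49 and 41. The means were 46.7 ± 4.93 in Cre and 35.0 ± 8.54 in control (SD, n = 3), a ratio of 1.33, and the groups overlap because control 3 exceeds Cre 3. Over all genes of the table the ratio was 1.45, with 4258, 4463 and 4863 genes detected in the controls and 6738, 7209 and 5790 in Cre, so that the groups separated completely. At an equal depth of 7486359 counts, reached by random thinning, these ratios were 1.35 and 1.43. Without control 3 the difference in the mean number of detected genes was 16.2 instead of 11.7, and without control 1 it was 7.67. COPII genes numbered 5, 4 and 7 in the controls and 10, 11 and 8 in Cre, and TRAPP genes 5, 7 and 8 against 12, 13 and 9, with no overlap in either class, as over all genes of the table. The p24 genes, at 4, 7 and 8 against 8, 6 and 6, and the translocon genes, at 5, 8 and 9 against 9, 8 and 8, overlapped. Both signal peptidase genes were detected in all 6 libraries.

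**Figure D1:**
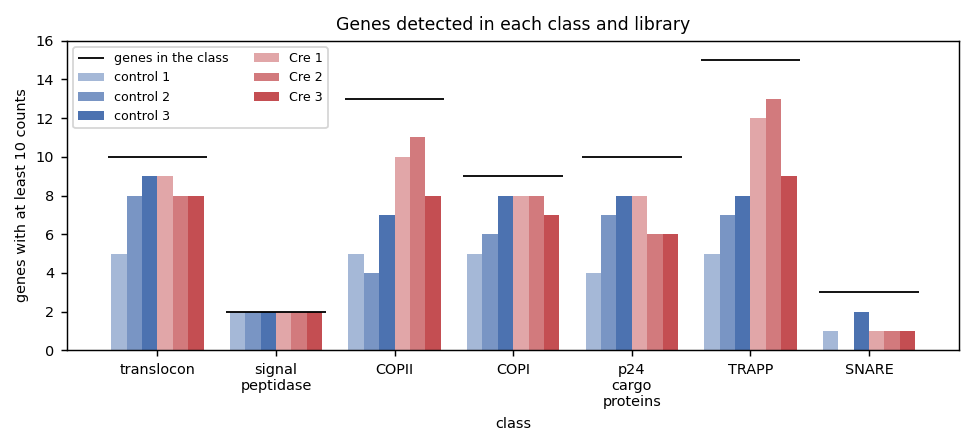
Number of genes with at least 10 counts (vertical axis) in each class (horizontal axis), 1 bar per library, with black lines at the number of genes in the class. In COPII and TRAPP every Cre bar (8 to 11 and 9 to 13) stands above every control bar (4 to 7 and 5 to 8), as it does over all genes of the table (5790 to 7209 against 4258 to 4863).

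Although the libraries shared few genes, these 62 were detected more evenly than most. Of the 62, 60 reached 10 counts in some library, and 13 of these (21.7%) did so in all 6, against 9.99% of the 11977 genes of the table that reached 10 counts anywhere. Another 4 (6.67%) were detected in a single library, against 32.7% of all genes. The rest varied from library to library: Sec16b and Sec31b stayed under 10 counts in every library, and among the 52 genes that passed the low-count filter the library with the highest CPM held a median 49.2% of a gene's summed CPM, against 48.8% for all 5727 tested genes. Control 3 was that library for 17 of the 52 (32.7%), against 19.6% of all tested genes. Across the 62 genes, which are not independent replicates, the Pearson correlation of log2(CPM + 1) was 0.55 to 0.68 for pairs within Cre, 0.23 to 0.35 for pairs within control and 0.18 to 0.53 for pairs across genotypes. The same correlation over all genes is not given, so whether this is particular to the 62 genes was not tested. The map of levels shows the spread between libraries as dark cells scattered through the columns of both genotypes.

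**Figure D2:**
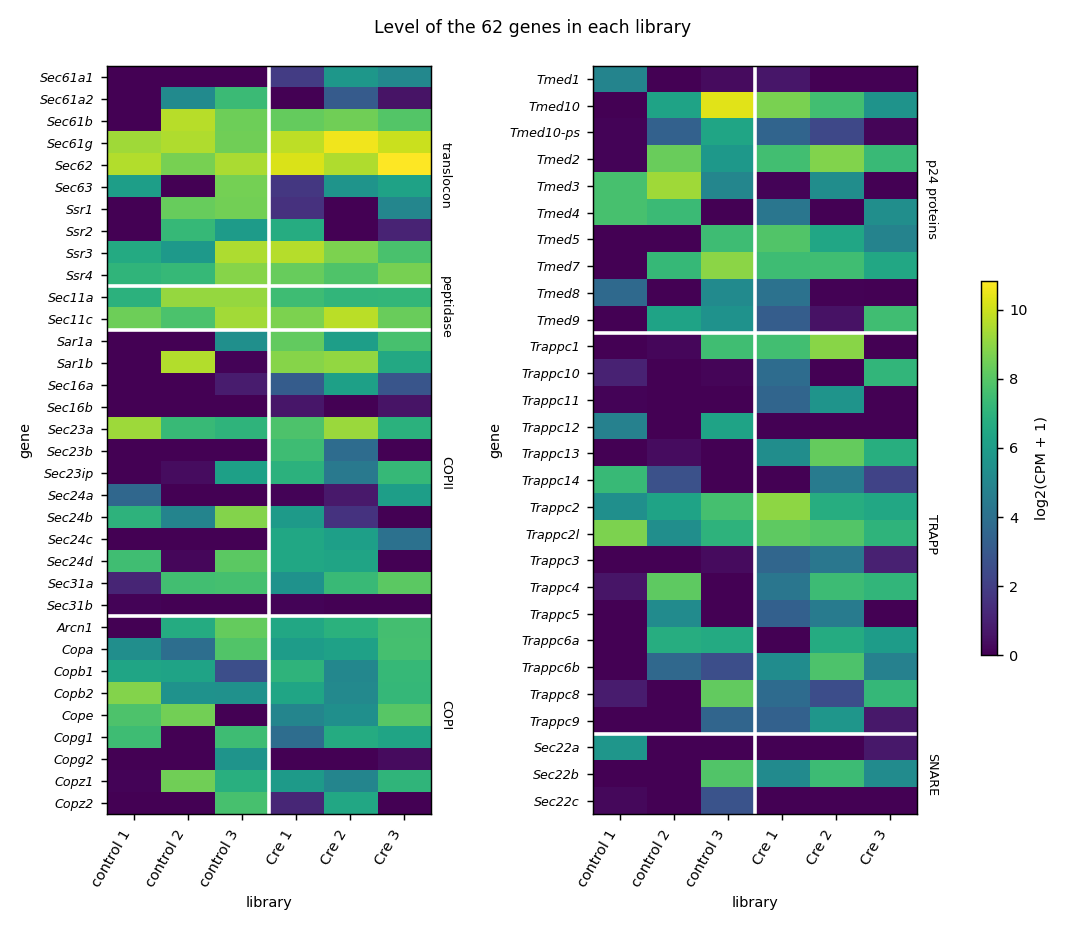
Colour gives log2(CPM + 1) of each of the 62 genes (rows, grouped by class) in the 3 control and 3 Cre libraries (columns), from dark (0 CPM) to yellow. Sec61g and Sec62 are bright in all 6 columns, while Sec24c, Sec61a1 and Sec23b are dark in every control column.

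None of the 62 genes passed the comparison of Cre with control. With edgeR's quasi-likelihood test, 0 of 52 tested members reached an adjusted p under 0.05 (Benjamini-Hochberg), beside 0% of the 5727 genes tested. At an unadjusted p under 0.05 the whole table held 254 higher and 27 lower genes. The other 10 genes had too few counts to pass the filter. At an unadjusted p under 0.05, 3 genes were higher in Cre (5.77% of 52, against 4.44% of all tested genes) and 0 lower (against 0.471%). Every Cre library lay above every control library for 8 genes (15.4%, against 10.4% of all tested genes) and below for 0 (against 2.3%). These 8 were Sar1a, Sec16a, Sec24c, Sec61a1, Sec61g, Trappc3, Trappc6b and Trappc13. DESeq2 called 6 of the 50 genes to which it gave an adjusted p (12%, against 11.9% of all such genes), Sec23b, Sec24c, Sec61a1, Trappc11 and Trappc13 as higher and Trappc12 as lower. Limma voom called 2 of 52 (3.85%, against 2.34%), Sec24c and Trappc13. These shares lay near those of the whole table. The median log2 fold change was 0.10 over the 52 genes and 0.08 over all tested genes, with 29 of the 52 positive. With DESeq2's size factors in the edgeR fit both medians were -0.15 and 24 of the 52 were positive, and without control 3 they were 1.01 and 0.56.

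By class, the TRAPP genes had 10 of 13 positive log2 fold changes (76.9%) with a median of 1.32, and COPII had 6 of 9 (66.7%) with a median of 0.83. Of all tested genes 52.3% were positive. Class medians were taken from the main fit alone, so their stability was not tested. The median was 0.09 for the 10 translocon genes, -0.89 for the 8 tested COPI genes and -0.99 for the 9 tested p24 genes. Summed over all 62 genes, controls 1, 2 and 3 held 5223, 7543 and 10585 CPM and Cre 1, 2 and 3 held 8437, 9481 and 7814 CPM. The group means, 8577 ± 842 CPM in Cre and 7784 ± 2689 CPM in control, differed by less than the spread between control libraries. Their ratio of 1.10 turned to 0.946 without control 1 and to 0.962 with DESeq2's size factors, and was 1.34 without control 3. TRAPP genes summed to 1131, 1791 and 851.7 CPM in Cre and 635.2, 564.0 and 999.0 in control, and COPI genes to 470.3, 518.2 and 1166 against 978.6, 962.4 and 1137. Neither class separated the genotypes by its sum. Without control 3 the TRAPP sums did separate, with every Cre library above controls 1 and 2, and the COPI sums still overlapped.

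The gamma subunit of the channel led the set in mean level per gene length, while Sec62 stood higher in the mean CPM of each group. Sec61g, the small gamma subunit of the Sec61 channel (mm10 chromosome 11, 16501638 to 16508484), had the highest deposited FPKM, a measure per gene length, of the 62 genes in 4 of 6 libraries and a mean of 1109 FPKM over all 6. In CPM it stood at 632.2, 758.2 and 362.7 in controls 1, 2 and 3 and at 860.3, 1576 and 993.0 in Cre 1, 2 and 3. Every Cre value lies above every control value. The means were 1143 ± 380.5 and 584.4 ± 202 CPM, a log2 fold change of 1.01 ± 0.58 (SE) that did not pass (edgeR unadjusted p = 0.0961, adjusted p = 1.00). Its partner Sec61b, the beta subunit, had 0 counts in control 1, which otherwise held 7340 counts of Sec61g, and stood at 811.3 and 348.0 CPM in controls 2 and 3 and at 305.7, 362.9 and 244.0 CPM in Cre. The groups overlap, since Cre 2 lies above controls 1 and 3.

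The alpha subunit, which forms the pore, was detected in 5 of 6 libraries, as was the beta subunit, and its leading paralog differed between libraries. Sec61a1 (chromosome 6, 88503607 to 88518800), had 0 counts in every control and 39, 1104 and 259 counts in Cre 1, 2 and 3. This is at least 384-fold higher in Cre against a floor of 3 counts over the control group, for counting error alone. The fitted log2 fold change of 11.52 ± 4.40 did not pass (edgeR unadjusted p = 0.0168, adjusted p = 0.680). Its paralog Sec61a2 (chromosome 2, 5870977 to 5895432) had 0, 268 and 2757 counts in control against 0, 162 and 4 in Cre. Per length, Sec61a2 made up 100% of the alpha subunit in controls 2 and 3, whereas Sec61a1 made up 100%, 94.2% and 99.4% in Cre 1, 2 and 3. Control 1 had neither. The summed alpha level was at most 23.4 FPKM in any library, below the gamma subunit in each. The shift between paralogs was not tested. Sec61a1 shares 17.3% of its exon bases with the antisense gene Gm44170, not analysed here. Sec61a2 shares 35.9% of its exon bases with Nudt5 on the opposite strand in the GENCODE M21 annotation, and Nudt5 had 0 to 10 counts.

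Sec62, which helps proteins enter the ER after their synthesis (chromosome 3, 30792876 to 30821263), was measured well in every library. It stood at 761.4, 396.6 and 702.5 CPM in the controls and at 1201, 756.6 and 1830 CPM in Cre. The lowest Cre value, in Cre 2, falls just under the highest control value. The log2 fold change was 1.01 ± 0.57 (edgeR unadjusted p = 0.0909, adjusted p = 1.00), positive under each alternative tried. Sec63, the partner of Sec62 that recruits the chaperone BiP, ran from 0 counts in control 2 to 382.5 CPM in control 3. In the TRAP complex, which sits beside the channel and aids some signal peptides, Ssr3 and Ssr4 were detected in every library. Ssr1 and Ssr2 were not. Ssr4 stood at 134.0, 153.9 and 472.2 CPM in the controls and 316.3, 227.4 and 393.9 in Cre (0.34 ± 1.32), and Ssr3 at 98.02, 56.10 and 733.2 against 787.1, 418.2 and 212.5 (0.77 ± 1.11). Without control 3 their log2 fold changes were 1.19 and 2.68, and without Cre 1 they were 0.26 and 0.05. Ssr1 was at 0, 315.4 and 364.0 CPM in the controls and 1.94, 0 and 30.5 in Cre, and Ssr2 at 0, 151.5 and 60.9 against 104.0, 0 and 1.11. Both of these were at 0 in control 1 and Cre 2, so their gaps did not follow genotype.

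The signal peptidase has a choice of catalytic subunits, and both were present in all libraries. Sec11a stood at 124.5, 551.1 and 557.8 CPM in the controls and at 175.7, 138.4 and 145.6 in Cre. The Cre libraries lie close together, and control 1 lies below them. The log2 fold change was -1.30 ± 1.39 (edgeR unadjusted p = 0.359, adjusted p = 1.00). Sec11c stood at 351.5, 219.3 and 645.4 CPM against 413.7, 845.5 and 327.2, a log2 fold change of 0.40 ± 0.87. Per length, Sec11c made up 51.6% to 84.9% of the pair in 5 libraries and Sec11a 73.2% in control 2.

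**Figure D3:**
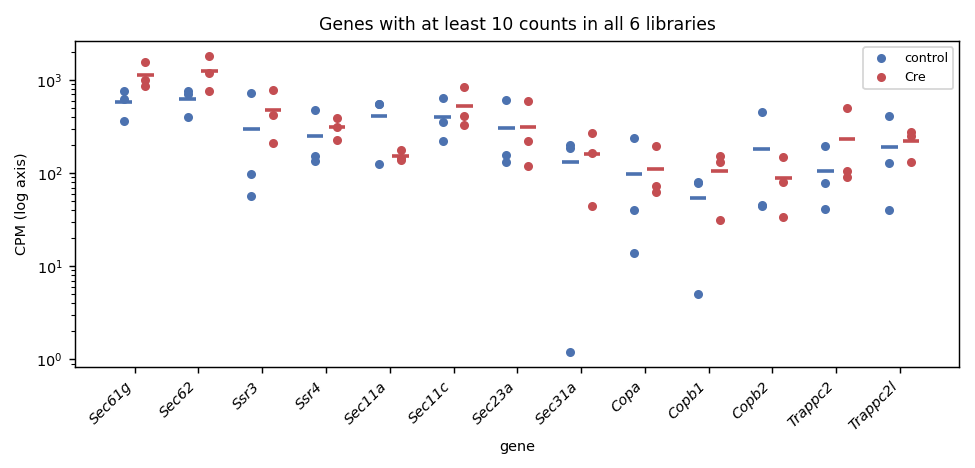
CPM on a log axis of the 13 genes with at least 10 counts in all 6 libraries, 1 point per library, with a short line at the mean of each group of 3. For Sec61g the Cre points (860.3 to 1576 CPM) lie above the control points (362.7 to 758.2 CPM), and for the other 12 genes the groups overlap.

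In COPII, the inner coat gene Sec23a was measured in every library and Sec24 changed its member from library to library. Sec23a stood at 614.7, 158.0 and 131.7 CPM in the controls and 221.3, 592.9 and 119.2 in Cre, with means of 301.5 ± 271.6 and 311.1 ± 249.3 CPM. The groups cover the same range, and the fitted log2 fold change of -0.0035 ± 1.26 took either sign under the alternatives, 1.31 without control 1. Sec23b, the other Sec23, had 0 counts in all controls and in Cre 3, and 2480 and 280 counts in Cre 1 and 2. It did not pass the low-count filter. By its group totals, of which Cre 1 gave the larger part, it was at least 756-fold higher in Cre, for counting error alone. Sec31a of the outer coat was at 1.21, 188.3 and 201.6 CPM in the controls and 44.8, 163.1 and 272.1 in Cre (0.36 ± 2.49), a value that turned to -0.17 without control 1 and -0.10 without Cre 3.

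The 4 Sec24 genes, whose products bind different cargo signals, were each missing from at least 2 libraries except Sec24b. Sec24c (chromosome 14, 20674285 to 20694852) had 0 counts in every control and 1198, 1441 and 124 in Cre 1, 2 and 3. By group totals it was at least 757-fold higher in Cre, for counting error alone and not for the spread between libraries. Its fitted log2 fold change, 12.61 ± 4.76, had the smallest unadjusted p of the set in edgeR (0.0157, adjusted p = 0.680), with an adjusted p of 0.00471 in DESeq2 and 0.0374 in limma voom. Sec24b had 1499, 215 and 7508 counts in control against 828, 43 and 0 in Cre, and Sec24d had 2129, 1 and 4482 against 1201, 1682 and 0. Sec24a reached 131 counts in control 1, 14 in Cre 2 and 537 in Cre 3 and was otherwise at 0 or 1. Per length, the leading Sec24 was Sec24d in control 1, Sec24b in controls 2 and 3, Sec24d in Cre 1 and 2 and Sec24a in Cre 3. Every library thus held at least 1 Sec24 at 10 counts or more.

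Sar1, the GTPase that starts the coat, was detected in 5 libraries. Sar1a had 0, 0 and 666 counts in control against 4194, 1418 and 1678 in Cre, which in CPM is 40.7 in control 3 and 300.9, 67.1 and 207.2 in Cre, so the groups do not overlap. The fitted log2 fold change of Sar1a was not past any threshold (edgeR unadjusted p = 0.251, adjusted p = 1.00). Sar1b had 0, 5710 and 1 counts against 6492, 11587 and 737. Control 1 thus had 0 counts of either Sar1, the Cre libraries detected both, and controls 2 and 3 detected 1 each. Sec16a, the large scaffold of ER exit sites, had 0, 0 and 13 counts in control against 111, 1508 and 50 in Cre. Sec23ip, a partner of Sec23, had 0, 2 and 1143 counts against 1720, 424 and 1240.

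**Figure D4:**
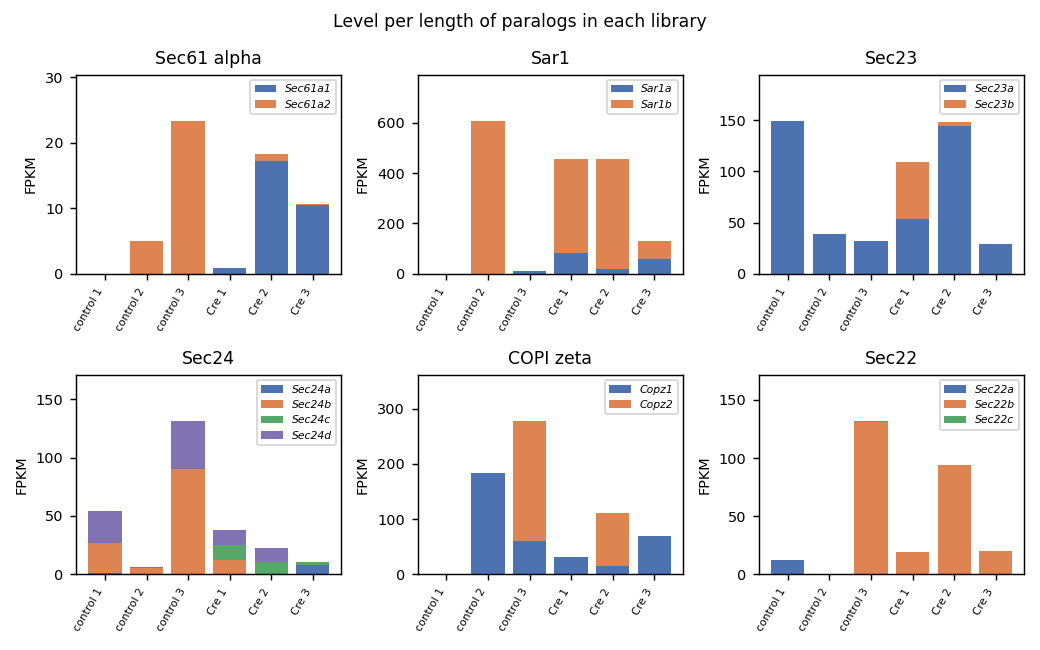
Deposited FPKM (vertical axis, linear, a separate scale per panel) of paralogs in each library (horizontal axis), stacked by gene. The Sec61 alpha bars are Sec61a2 in controls 2 and 3 and mostly Sec61a1 (94.2% to 100%) in the Cre libraries, and control 1 has no bar for Sec61 alpha or Sar1.

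All 7 places of the COPI coatomer were filled in each Cre library and in no control library. Cre libraries also shared more detected genes generally: of the genes of the table that reached 10 counts anywhere, 26.4% did so in all 3 Cre libraries and 12.9% in all 3 controls. A place counts as filled when its gene, or either of a pair of paralogs, reached 10 counts, a tally chosen after the values were seen. Control 1 lacked Arcn1 (the delta subunit, 0 counts) and zeta (1 count of Copz1 and 0 of Copz2), control 2 lacked gamma (0 counts of Copg1 and Copg2), and control 3 lacked Cope (epsilon, 0 counts). The lowest filled place in Cre held 191 counts, of Copg1 in Cre 1. Over 21 places, 21 were filled in Cre and 17 in control, and the tallies were 21 and 18 at a threshold of 1 count and 21 and 17 at 50 counts or at equal depth. The missing subunits of the controls were well covered in the other controls: Cope had 2627 and 2778 counts in controls 1 and 2, and Arcn1 had 753 and 5041 in controls 2 and 3.

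COPI levels themselves did not separate the genotypes. Copb1 stood at 80.9, 77.6 and 5.01 CPM in the controls and 133.1, 31.2 and 152.2 in Cre (1.00 ± 2.84), and Copa at 39.7, 14.0 and 236.1 against 62.5, 72.7 and 196.9 (0.16 ± 2.70). Copb2 was at 454.5, 45.2 and 44.1 CPM against 81.1, 33.6 and 148.0 (-1.17 ± 2.44). In each of these 3 genes the groups overlap, and the sign of Copa turned without control 1, control 2 or Cre 3 (-0.16, -0.31 and -0.37) and that of Copb2 without control 1 (1.17). Copz2, the second zeta gene, reached 3330 counts in control 3, 1872 in Cre 2 and 17 in Cre 1 and was at 0 elsewhere. Copg2 had 793 counts in control 3 and at most 2 in any other library.

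The p24 family had 3 positive (33.3%) and 6 negative log2 fold changes, against 52.3% positive of all tested genes. The highest library was control 3 for 4 of the 9 tested p24 genes (44.4%), against 19.6% of all tested genes. Tmed10, a core member of the p24 complex, had 0, 581 and 21622 counts in control against 5614, 3983 and 375 in Cre. Tmed2, its usual partner, had 1, 2477 and 884 counts against 2631, 9338 and 1297. Control 1 thus lacked both, and every Cre library had both. Tmed3 ran the other way, with 2393, 4631 and 493 counts in control against 1, 830 and 0 in Cre. It had the smallest p among the p24 genes (edgeR unadjusted p = 0.175, adjusted p = 1.00). In CPM, Tmed3 stood at 206.1, 618.6 and 30.1 in control and 0.0718, 39.3 and 0 in Cre, so Cre 2 lies above control 3. Tmed7 had 0, 1129 and 7993 counts against 2433, 3866 and 714, and Tmed5 had 0, 0 and 2881 against 3294, 1780 and 222. The remaining p24 genes, Tmed1, Tmed4, Tmed8 and Tmed9, were each detected in 1 to 4 libraries.

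Among the 13 tested TRAPP genes, 9 (69.2%) had over 50% of their summed CPM in a single library, against 47.1% of all tested genes. Trappc13, a subunit of the larger TRAPPIII form (chromosome 13, 104142153 to 104178466), had 0, 2 and 0 counts in control against 548, 6440 and 903 in Cre. The ratio of depth-scaled group totals was 3242 with a 95% exact binomial interval of 897.2 to 26777, for counting error alone. Its fitted log2 fold change was 10.83 ± 4.42 (edgeR unadjusted p = 0.0230, adjusted p = 0.790). With Sec24c and Sec61a1, it was 1 of 3 genes (5% of the 60 detected) at 10 counts or more in every Cre library and in no control, a pattern held by 2.29% of detected genes in the table. The reverse pattern was held by 0 of the 62 and by 0.134% of detected genes.

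Of the core TRAPP subunits, Trappc2 and Trappc2l were measured in all libraries. Trappc2 stood at 40.7, 77.6 and 196.7 CPM in the controls and 503.1, 106.6 and 90.3 in Cre (1.32 ± 2.10, and -0.09 without Cre 1), and Trappc2l at 409.3, 39.7 and 128.5 against 279.5, 247.4 and 130.3 (0.15 ± 1.74). Without control 2, control 3 or Cre 1, Trappc2l turned to -0.38, -0.14 and -0.16. Neither gene separated the groups. Trappc3, another core subunit, had 0, 0 and 4 counts in control and 152, 393 and 8 in Cre. Trappc6a and Trappc6b, which fill the same place, were at 0, 806 and 1599 counts against 0, 2131 and 501, and at 0, 87 and 84 against 525, 4695 and 214. Counting those as 1 place, controls 1, 2 and 3 filled 2, 5 and 4 of 7 core places and Cre 1, 2 and 3 filled 7, 7 and 4, a tally also chosen after the values were seen. The same tally gave 2, 4 and 4 of 4 TRAP places in control against 4, 2 and 3 in Cre. For 4 COPII places it gave 3, 4 and 4 against 4, 4 and 4. For 3 Sec61 channel places it gave 1, 3 and 3 against 3, 3 and 3, and for Sec62 and Sec63 2, 1 and 2 against 2, 2 and 2. Of all genes reaching 10 counts anywhere, 26.4% did so in all 3 Cre libraries and 12.9% in all 3 controls. Trappc1 had 2942, 2604 and 10010 counts in control 3, Cre 1 and Cre 2 and at most 1 count in the others. Trappc12 of TRAPPIII was detected in control libraries alone, with 307, 0 and 1276 counts and 0 in every Cre library. By group totals it was at least 642-fold lower in Cre, for counting error alone and not for the spread between libraries. Trappc11, with 1, 0 and 0 counts against 150, 1008 and 0, was higher in Cre 1 and 2, and neither passed the low-count filter.

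Among the SNAREs, Sec22b, which acts in fusion between ER and Golgi, had 0, 0 and 3897 counts in control against 491, 3614 and 293 in Cre. Sec22a reached 586 counts in control 1 and at most 5 elsewhere, and Sec22c reached 94 counts in control 3 and at most 2 elsewhere. Sec22b was thus the Sec22 of every Cre library and of control 3.

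Genes that work with these 62 were read from the same fit. In 9 lists of 90 symbols, from signal recognition to early Golgi tethers, 69 genes were tested, 42 with a positive and 27 with a negative log2 fold change, a median of 0.36, and 0 with an adjusted p under 0.05 in edgeR. The unadjusted p was under 0.05 for 1 higher and 1 lower gene of the 69, against 4.44% and 0.471% of all tested genes, of which 52.3% had a positive log2 fold change. The higher one was Eif2ak3, the ER stress kinase PERK, with 1, 0 and 0 counts in control against 466, 3205 and 959 in Cre (edgeR unadjusted p = 0.0233, adjusted p = 0.79). The adjusted p of Eif2ak3 was 0.003441 in DESeq2 and 0.01725 in limma voom, so both called it. The lower one was Kdelr2, a receptor that returns ER proteins from the Golgi in COPI vesicles, at 562, 1072 and 1238 CPM in the controls and 392, 262 and 196 in Cre (log2 fold change -1.64 ± 0.74, edgeR unadjusted p = 0.0370, adjusted p = 0.865). Kdelr2 was detected in every library and its groups did not overlap. Its adjusted p was 0.8906 in DESeq2 and 0.2112 in limma voom. Of 10 tested oligosaccharyltransferase genes 9 were positive, and of 12 tested cargo receptors and export adaptors 8 were negative. ER to Golgi SNAREs were detected at 1, 0 and 7 of 11 in the controls and 7, 8 and 7 in Cre. Cargo receptors and export adaptors were detected at 8, 10 and 11 of 15 against 12, 10 and 7. The 9 lists together had 45, 50 and 58 of 89 detected against 61, 69 and 59. Of all genes reaching 10 counts anywhere, 35.55%, 37.26% and 40.6% were detected in the controls and 56.26%, 60.19% and 48.34% in Cre.

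Promoter windows were available for most of the genes. RefSeq start-site windows on GRCm38.p6 were found for 50 of them, and the 250 bases upstream had a median of 15 CpG and 58% GC, against 9 and 55.6% for the 16522 genes of the table with a window. The search covered 3 motifs on both strands. The ER stress element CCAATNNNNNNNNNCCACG was in 0 of 54 windows (0.118% of all windows), its first part CCAAT in 38.9% (33.7%) and its last part CCACG in 53.7% (33.6%), where each part is counted inside and outside the full element. Counted per gene, CCAAT was in 38% of the 50 genes against 38.54% of all genes with a window. CCACG was in 54% against 38.06%. A match describes letters and is no sign of binding. Of the 3 genes detected in every Cre library and no control, the bases upstream of the gene are shown for Sec24c (chr14:20674071-20674284, plus strand) and Trappc13 (chr13:104178467-104178716, minus strand), 5′ to 3′, with CCACG or its complement in capitals. Sec24c has 1 such match and Trappc13 none.
Sec24c: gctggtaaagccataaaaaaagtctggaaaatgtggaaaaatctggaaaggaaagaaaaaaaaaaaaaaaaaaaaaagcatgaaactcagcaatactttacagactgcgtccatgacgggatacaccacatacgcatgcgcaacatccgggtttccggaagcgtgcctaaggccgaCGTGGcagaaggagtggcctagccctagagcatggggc
Trappc13: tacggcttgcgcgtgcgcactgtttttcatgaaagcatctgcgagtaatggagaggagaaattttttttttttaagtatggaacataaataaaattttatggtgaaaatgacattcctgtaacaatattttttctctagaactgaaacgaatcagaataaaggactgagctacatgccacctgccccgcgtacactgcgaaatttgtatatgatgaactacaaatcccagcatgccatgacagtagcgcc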

How the data were processed

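RNA from retinal ganglion cells was sequenced from 3 Cre and 3 control samples. Per the labels' protocols, libraries were made with the VAHTS Universal V6 kit from low-input RNA. Per the submitters' processing notes, the build was mm10 and the tools included HISAT2, fastp, HTSeq, DESeq2 and R 3.2.0. For the annotation, the strand setting and the role of each tool, nothing is given in the sources used here, and reads of a gene and its antisense partner may be mixed. The authors deposited raw gene counts, and FPKM in a matching table of 22413 genes. Each deposited FPKM value is its count over the column total and over 1 length per gene (largest relative deviation 9.38e-06% at 100 counts or more). There were 0 columns of other samples.

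Cre and control were compared across all genes with edgeR 4.0.16 in R 4.3.3 (robust quasi-likelihood test after TMM scaling and filterByExpr, Benjamini-Hochberg threshold 0.05, genotype as the only term). Fold changes are Cre against control on the log2 scale ± SE. The SE was computed as the absolute log2 fold change over the square root of the F statistic of the test. The common biological coefficient of variation was 2.04. The script was tested on simulated data. DESeq2 1.42.0, limma 3.58.1, other scalings and filters, log2(FPKM + 1) and log2(FPKM + 0.1), a replicate block and each library left out were alternatives. An adjusted p that DESeq2 left missing (15331 genes) stayed missing. CPM divide by the column total. Coordinates are from RefSeq GRCm38.p6, which held 61 of the 62 symbols, and promoter windows from the same build.

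The members, gene lists and rules were chosen with earlier results of these data known. Genes given in full were those with at least 10 counts in all libraries, those with an unadjusted p under 0.05, those at 10 counts or more in every library of 1 genotype and none of the other, and paralogs of the same place. Up to 2 genes with the smallest p per pathway list could be named, and of these the 2 with an unadjusted p under 0.05 were. Other members named with values were chosen after their values were seen.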

Additional observations from a re-analysis of the deposited data

How the results depend on the processing

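No gene was called by edgeR with DESeq2's size factors, with other low-count filters or on FPKM with limma. DESeq2 called 840 genes and 6 of the 62, limma voom 134 and 2, and fits with 1 library left out 0 to 7 genes (7, 3, 4 and 2 without control 1, control 2, control 3 and Cre 1) and 0 of the 62. No pairing by replicate number was visible: same-numbered libraries deviated from their group means with correlations of -0.0243, 0.026 and -0.0111, and not every library correlated best with its own number. With 3 libraries per group this cannot show whether the samples were paired. With the replicate block 0 genes were called and the median log2 fold change of the tested members was 1.14. That median was 1.52 with voom, 0.881 on log2(FPKM + 1), 1.39 on log2(FPKM + 0.1) and 0.031 to 1.01 with 1 library left out, the last without control 3. All-gene medians in the same fits were 1.04, 1.52, 0.467 and 0.932 for the block, voom and the FPKM settings. The members lay below all genes with DESeq2 (-0.214 against 0.637), without the low-count filter (0.0777 against 1.40) and without control 1 (0.154 against 0.566). The cause was not tested.

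Of 18 named fold changes, 12 kept their sign in every fit that gave a value. Copa turned to -0.10 with DESeq2 or its size factors and ran from -0.37 to 1.93 with 1 library left out. Trappc2l turned to -0.06 in the same fits and ran from -0.38 to 1.56. Sec23a turned to 0.04 with the filter of 10 counts in 2 libraries, 0.75 with voom, 0.09 and 0.10 on FPKM and 0.09 with the block, and ran from -0.71 to 1.31. With 1 library left out Copb2 ran from -1.69 to 1.17, Sec31a from -0.17 to 1.02 and Trappc2 from -0.09 to 2.24. Thinning to the smallest library total left 26 to 50 members detected per library, against 27 to 50. Whether deeper sequencing would detect more was not tested.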

Other observations

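The pseudogene Tmed10-ps followed its parent gene unevenly. Its counts were 1, 69 and 1338 across controls 1 to 3 and 141, 87 and 1 across Cre 1 to 3, beside 0, 581 and 21622 and 5614, 3983 and 375 counts of Tmed10. Its share of their joint counts was 10.6% in control 2 and 5.83% in control 3, and 2.45%, 2.14% and 0.266% in the Cre libraries. How reads that match both were counted is not given in the sources used here, so both values are uncertain.

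In GENCODE M21, 7 of the 62 genes share exon bases with another gene of the table on the opposite strand. Trappc4 shares 31.8% of its exon bases with the ribosomal protein gene Rps25. Rps25 had 3457 to 22931 counts in every library, while Trappc4 had 6, 2132 and 0 counts in control against 253, 3593 and 1121 in Cre. Copg2 shares 912 of 3961 exon bases with Mest, which had 2 counts in control 3, the library with 793 counts of Copg2. Other members share exon bases with genes outside the table. Among these, Tmed7 shares 38.3% with Ticam2 on the same strand. On the opposite strand, Sec62 shares 12.8% with 4933429H19Rik and Sec11a 12.1% with Gm16171. The effect of these overlaps on the counts was not tested.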
